A study of Mus musculus with 2 samples.

Results

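The subject is the set of nuclear genes that encode subunits of the mitochondrial respiratory chain and of ATP synthase, measured in single nuclei of mouse brown adipose tissue. Members were chosen by symbol alone: the Ndufa, Ndufb, Ndufc, Ndufs and Ndufv genes of complex I, Sdha to Sdhd of complex II, the Uqcr genes and Cyc1 of complex III, the Cox4 to Cox8 genes of complex IV and the Atp5 genes of complex V. Names of assembly factors were left out, and a gene had to have at least 50 unique molecular identifiers (UMIs, counted RNA molecules) over both libraries. This kept 86 of the 22620 genes in the files, with 39 for complex I, 4 for II, 9 for III, 16 for IV and 18 for V. Another 4 symbols matched but had fewer UMIs: Cox5b-ps with 39, Cox7b2 with 2, Ndufb11b with 1 and Cox8c with 0. The lowest kept member had 97 UMIs. A kept member need not have enough UMIs in every cell class, so the number counted in a class is given with each result.

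The respiratory chain passes electrons from NADH (complex I) and succinate (complex II) through complexes III and IV to oxygen, and the proton gradient it builds drives ATP synthase, complex V. Brown adipocytes are packed with mitochondria, and their uncoupling protein UCP1 lets protons back in without making ATP, so that fuel is burned as heat. Some subunits exist as isoforms made in particular tissues: Cox7a1, Cox8b and Cox6a2 are known from heart and skeletal muscle, and Cox7a1 and Cox8b also from brown fat, whereas Cox7a2, Cox8a and Cox6a1 are made widely.

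The samples were 2 droplet libraries of nuclei from brown adipose tissue of mice at 4 weeks, 1 labelled Flox and 1 labelled KO. The design text names the second as a knockout of Nfe2l1, whose product NFE2L1 is a transcription factor that drives proteasome genes; Flox names its control. The Cre driver, the deleted part of the gene, the sex and the number of mice behind each library are not stated in the labels, the design text or the file headers. Each genotype is a single library, so the differences carry no replicate check and no test or p-value is given. Every interval is a 95% interval for counting error only and leaves out the spread between nuclei and between mice.

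The library labelled KO had more Nfe2l1 RNA in adipocyte-like nuclei, with 9129 UMIs against 3643 for Flox. This is 313 CPM in KO and 131 in Flox, that is UMIs scaled to a common total per class. The log2 ratio of KO over Flox was 1.25 there and 1.36 in T/NK-like nuclei (16 and 45 UMIs). It was 0.29 in macrophage/monocyte-like, 0.20 in endothelial-like, 0.08 in fibroblast/progenitor-like and -0.08 in pericyte/smooth muscle-like nuclei. With the deleted part of the gene not stated, these counts cannot check the label. Each direction below therefore rests on the labels alone. The libraries held 16145 and 13030 barcodes with 46528077 and 43080725 UMIs, and filters left 13961 and 11543 nuclei whose median depth was 2250 and 2645 UMIs. The libraries shared 65 barcode sequences. The median share of mitochondrially encoded UMIs per nucleus was 0.420% in Flox and 1.12% in KO. Clusters were named from marker genes, as adipocyte-like (8784 in Flox, 8213 in KO), endothelial-like (1493 and 943), fibroblast/progenitor-like (2085 and 1437), macrophage/monocyte-like (602 and 412), pericyte/smooth muscle-like (349 and 215) and T/NK-like (104 and 125).

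The members lay on 19 chromosomes and were short for genes seen in nuclei, with a median length of 7245 bp against 25975 bp for all genes that passed the same UMI minimum. Whether the counting used introns or strand is not given, and 33 of the 86 members overlap a gene on the opposite strand and 13 a gene on their own strand, so part of their counts may belong to the neighbour. The clearest case is Atp5o, which encodes the stalk protein OSCP and has 2 identifiers in the files. One covers the gene itself (ENSMUSG00000022956, chr16:91925214-91931687, minus strand, mm10). The other (ENSMUSG00000116933, chr16:91684398-91926982, minus strand) spans 242585 bp, overlaps the first, Donson and Cryzl1 on the same strand and Itsn1 on the opposite strand, and is called the long Atp5o locus here because its reads cannot be assigned to Atp5o alone.

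Together the members took 0.873% of all UMIs in the library labelled Flox and 0.964% in the library labelled KO. In adipocyte-like nuclei they took 0.860% (0.856 to 0.863) in Flox and 1.02% (1.02 to 1.03) in KO, a ratio of 1.19. In endothelial-like nuclei the order was the other way round, at 1.21% (1.19 to 1.22) and 0.715% (0.704 to 0.728), a ratio of 0.593. The shares were 0.616% and 0.469% for macrophage/monocyte-like, 0.785% and 0.718% for pericyte/smooth muscle-like and 0.750% and 0.810% for T/NK-like nuclei. Fibroblast/progenitor-like nuclei had 0.498% and 0.467%, the lowest share in Flox. In KO they were level with macrophage/monocyte-like nuclei within counting error (0.459 to 0.475 against 0.457 to 0.482). Skeletal muscle-like nuclei, with 298 in Flox and 74 in KO too few to compare gene by gene, had 1.13% and 0.869%.

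**Figure D1:**
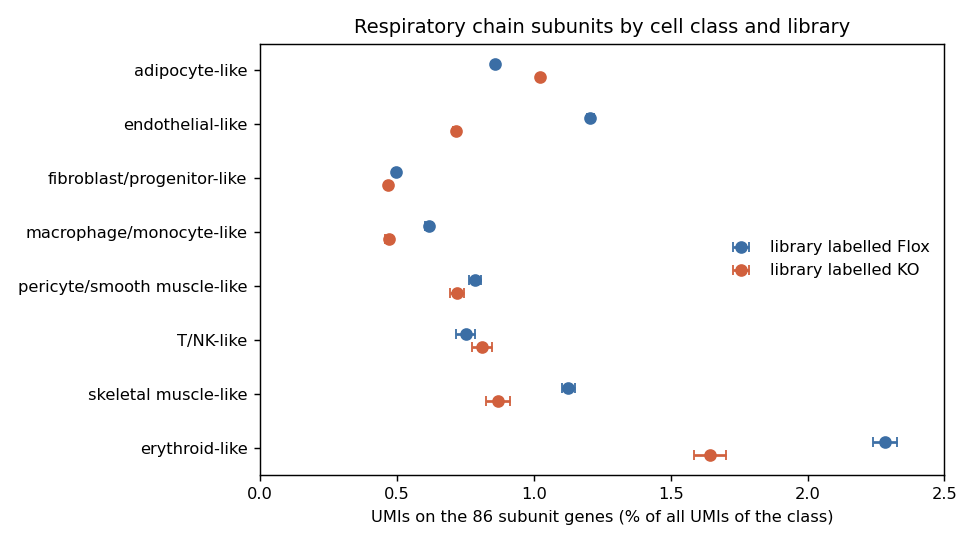
Share of all UMIs of a class that fell on the 86 subunit genes, in percent on the horizontal axis, by cell class and library; points are the summed share and bars the 95% interval for counting error. Adipocyte-like nuclei stand at 0.860% in the library labelled Flox and 1.02% in the library labelled KO, and endothelial-like nuclei at 1.21% and 0.715%.

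In adipocyte-like nuclei most subunits were slightly higher in the library labelled KO. Of the 84 members with at least 50 UMIs in the class, 76 had a log2 ratio (KO over Flox, 0.5 UMI added) above 0, against 40.6% of the 12306 genes counted there. Their median was 0.28, and that of all counted genes was -0.06. At least 1.5-fold higher were 8 members, where the share of all counted genes was 2.13%, and at least 1.5-fold lower were 2, where it was 8.29%. Among nuclei with a mitochondrial share between 0.5% and 1%, described below, Cox8b, Cox7a1, Atp5k, Ndufa3, Uqcr11 and Atp5e were all less than 1.5-fold higher. Over 11 other ways of filtering, clustering and scaling the number at least 1.5-fold higher ran from 4 to 13. The median was below 1.5-fold, and the members differed by less from one library to the other than the mitochondrially encoded subunits did: the 13 mitochondrial genes of the chain had a median log2 ratio of 1.49 and all 13 were at least 1.5-fold higher, from mt-Nd5 at 91.9 and 200.2 CPM (1.12) to mt-Atp6 at 562 and 2015 CPM (1.84). Cytosolic ribosomal protein genes, which are also short and abundant, had a median of 0.32, with 78 of 85 above 0; Rps28 and Rps29 were highest at 0.70.

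By complex, the median log2 ratio in adipocyte-like nuclei was 0.26 for complex I, 0.12 for II, 0.35 for III, 0.32 for IV and 0.22 for V. Summed UMIs gave ratios of 1.17 for complex I, 1.05 for II, 1.28 for III, 1.29 for IV and 1.16 for V. Complex III was the only complex with all of its members above 0, at 9 of 9, while complex I had 37 of 38, II 3 of 4, IV 13 of 15 and V 14 of 18.

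**Figure D2:**
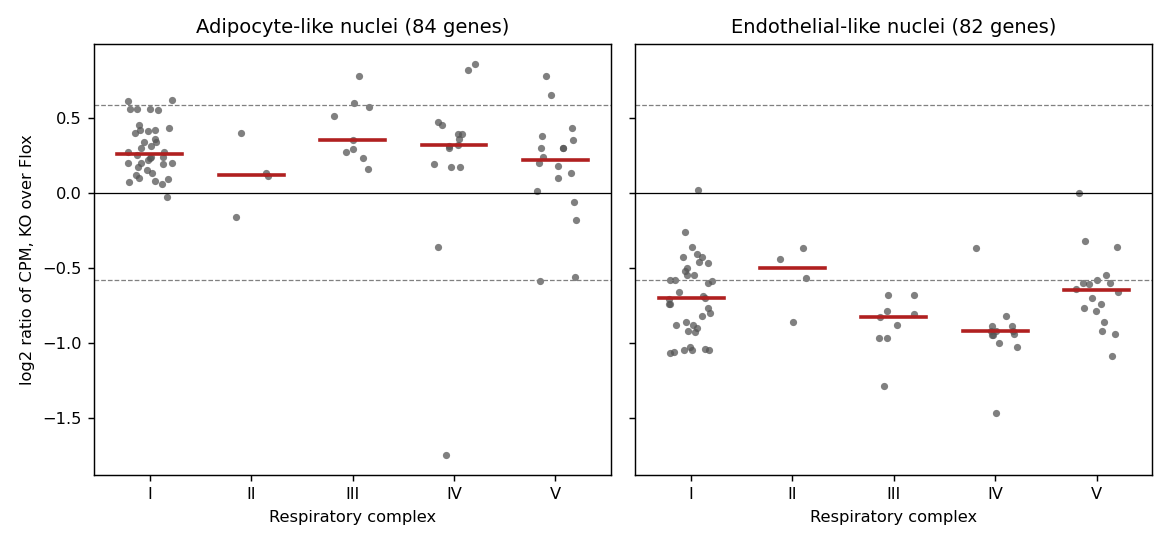
Log2 ratio of CPM, KO over Flox, on the vertical axis for each counted subunit gene (points) by complex, with the median of each complex as a bar and dashed lines at 1.5-fold. In adipocyte-like nuclei the medians lie between 0.12 and 0.35, and in endothelial-like nuclei between -0.92 and -0.50.

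Complex I takes electrons from NADH. Ndufs4, an accessory subunit of the matrix arm, had the most UMIs of the family, 12027 in Flox (433 CPM) and 13229 in KO (453 CPM), and its log2 ratio was 0.07. Among the core subunits, which pass the electrons on to ubiquinone, Ndufs1 stood at 258 and 275 CPM (0.09) and Ndufv1 at 77.3 and 88.9 CPM (0.20). Ndufs3, another core subunit, was the only counted complex I gene below 0, at 194 and 189 CPM (-0.03, -0.09 to 0.02). These lie below the complex I median of 0.26, as do Ndufv2 (0.10) and Ndufs7 (0.25), while Ndufs8, with only 408 and 541 UMIs, stood above it at 0.34 (0.15 to 0.52).

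Higher values came from small accessory subunits. Ndufa3 had 1390 UMIs in Flox and 2251 in KO, which gave a log2 ratio of 0.62 (0.53 to 0.72). Ndufa1 stood at 29.4 and 44.9 CPM, with 0.61 (0.49 to 0.74), and Ndufa5 at 57.9 and 85.6 CPM, with 0.56. Ndufa4, which carries a complex I name but is now known as a subunit of complex IV, stood at 122 and 168 CPM (0.45). Ndufab1, which is also the mitochondrial acyl carrier protein, differed little, at 89.6 and 94.9 CPM (0.08).

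Complex II, succinate dehydrogenase, belongs both to the chain and to the tricarboxylic acid cycle, and it differed least. Sdha, the flavoprotein, stood at 319 and 345 CPM (0.11), and Sdhc, a membrane anchor, at 176 and 192 CPM (0.13). Sdhb, the iron-sulphur subunit, was lower, at 232 and 208 CPM (-0.16, -0.21 to -0.11). Sdhd, the other membrane anchor, was higher, at 54.1 and 71.4 CPM (0.40).

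In complex III, cytochrome bc1, the smallest subunits lay furthest from 0. Uqcr11 stood at 67.1 and 115 CPM, with a log2 ratio of 0.78 (0.70 to 0.86), and Uqcr10 at 51.5 and 78.3 CPM (0.60). Uqcrfs1, the Rieske iron-sulphur protein, stood at 53.2 and 79.0 CPM (0.57), below 1.5-fold. Cyc1, the cytochrome c1 subunit, stood at 109 and 132 CPM (0.27), and the core proteins Uqcrc1 and Uqcrc2 had log2 ratios of 0.23 and 0.16.

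Complex IV, cytochrome c oxidase, held both ends of the range. Cox8b had 3027 UMIs in Flox, which is 109 CPM with an interval of 105 to 113, and 5777 in KO, or 198 CPM (193 to 203). Its log2 ratio of 0.86 (0.80 to 0.92) was the highest of all 84. Cox7a1 had 781 UMIs (28.1 CPM) and 1454 (49.8 CPM), a log2 ratio of 0.82 (0.70 to 0.95). Both are the isoforms known from brown fat and muscle, and their widely made partners were less far apart, Cox8a at 0.45 and Cox7a2 at 0.36. Cox4i1, the widely made isoform of subunit 4, stood at 176 and 231 CPM (0.39) and Cox5a at 186 and 209 CPM (0.17).

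At the other end, Cox6a2, the isoform of heart and skeletal muscle, had 100 UMIs in Flox and 31 in KO, a log2 ratio of -1.75 (-2.39 to -1.17). Skeletal muscle markers moved the same way in these nuclei: all 10 listed markers were detected in both libraries, with a summed level of 193 CPM in Flox and 77.6 CPM in KO. In skeletal muscle-like nuclei the same markers summed to 52260 and 54640 CPM. Each of the other compared classes also had a negative log2 ratio for Cox6a2, with too few UMIs to be counted there. Endothelial-like nuclei had 37 and 7 UMIs, and fibroblast/progenitor-like nuclei 29 and 1. The part of muscle RNA in the Cox6a2 values was not tested. Cox6b2, an isoform known from testis, had 294 and 241 UMIs, a log2 ratio of -0.36 (-0.61 to -0.11).

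In complex V, ATP synthase, the catalytic subunit Atp5b stood at 257 and 346 CPM (0.43), and its partner Atp5a1 at 309 and 349 CPM (0.18). The small subunits Atp5k (subunit e of the membrane part) and Atp5e (epsilon of the stalk) lay highest: Atp5k stood at 58.9 and 101 CPM, with a log2 ratio of 0.78 (0.70 to 0.87), and Atp5e at 51.9 and 81.2 CPM, with 0.65 (0.55 to 0.74). The c subunits of the rotor ring did not follow. Atp5g1 had only 100 and 71 UMIs (-0.56, -1.03 to -0.11), Atp5g3 stood at 89.5 and 79.0 CPM (-0.18) and Atp5g2 at 63.4 and 67.9 CPM (0.10). Atp5c1, the central stalk, was level at 167 and 169 CPM (0.01). Atpif1, the inhibitor of ATP synthase and no member by its symbol, stood at 10.2 and 11.5 CPM (0.19). The Atp5o gene itself stood at 55.6 and 72.2 CPM (0.38), and the long Atp5o locus at 115 and 76.7 CPM (-0.59, -0.66 to -0.51), which makes it, with Cox6a2, one of the 2 identifiers at least 1.5-fold lower.

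The 4 counted members furthest above 0 were Cox8b, Cox7a1, Uqcr11 and Atp5k, and their promoters are shown to let the reader see what they have and do not have in common. RefSeq promoter windows (250 bases before and 50 after the start site, GRCm38.p6, which is mm10) were matched for 68 of the 86 members and gave 73 windows. They were searched on both strands for 5 motifs: the core site of nuclear respiratory factor 1 (GCGCATGC; this factor is another protein than NFE2L1), the GABP site (CCGGAAG), the YY1 site (AAGATGGC), the ERR element (TCAAGGTCA) and the antioxidant response element core (TGACNNNGC), which NFE2L1 and its relatives can bind. The 4 windows read 5′ to 3′ on the gene's own strand, and capitals mark the motifs found.
Cox8b, chr7:140900397-140900696, minus strand: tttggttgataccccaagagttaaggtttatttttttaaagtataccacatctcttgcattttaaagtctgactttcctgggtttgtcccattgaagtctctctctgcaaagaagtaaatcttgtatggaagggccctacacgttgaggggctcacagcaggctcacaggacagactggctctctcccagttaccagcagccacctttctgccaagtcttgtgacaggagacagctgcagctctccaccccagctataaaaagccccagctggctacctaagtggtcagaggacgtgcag
Cox7a1, chr7:30183921-30184220, plus strand: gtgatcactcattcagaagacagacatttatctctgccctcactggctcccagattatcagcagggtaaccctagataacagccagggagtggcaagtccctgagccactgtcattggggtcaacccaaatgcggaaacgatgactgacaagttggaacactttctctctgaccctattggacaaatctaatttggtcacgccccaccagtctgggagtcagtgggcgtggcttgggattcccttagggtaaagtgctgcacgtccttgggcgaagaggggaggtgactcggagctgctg
Uqcr11, chr10:80406772-80407071, minus strand: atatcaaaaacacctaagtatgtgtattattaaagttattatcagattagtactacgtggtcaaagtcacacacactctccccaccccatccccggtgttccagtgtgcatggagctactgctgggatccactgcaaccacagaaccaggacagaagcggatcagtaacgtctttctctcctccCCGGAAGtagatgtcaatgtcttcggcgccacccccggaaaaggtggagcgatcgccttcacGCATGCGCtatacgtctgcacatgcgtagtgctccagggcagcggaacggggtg
Atp5k, chr5:108434350-108434649, minus strand: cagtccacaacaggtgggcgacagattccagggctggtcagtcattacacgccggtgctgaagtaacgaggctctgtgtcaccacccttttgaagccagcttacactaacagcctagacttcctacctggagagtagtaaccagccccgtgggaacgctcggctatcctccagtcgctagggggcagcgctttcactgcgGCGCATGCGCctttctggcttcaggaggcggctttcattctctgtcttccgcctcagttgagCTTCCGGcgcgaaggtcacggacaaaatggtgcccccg

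The windows of Uqcr11 and Atp5k each held the nuclear respiratory factor 1 core and the GABP site, whereas those of the tissue isoforms Cox8b and Cox7a1 held none of the 5 motifs. In Atp5k the core lies in an overlapping pair, once on each strand, counted as 2 matches. Over all 73 member windows the core was found in 13.7% against 2.71% of all 32851 windows in the RefSeq table, the GABP site in 23.3% against 8.86%, the YY1 site in 13.7% against 2.75% and the ERR element in 2.74% against 0.423%. The antioxidant response element core was found in 12.3% against 12.4%. Member windows were richer in G and C, with a median of 58.3% against 52.7%, and the motif shares were not adjusted for it. Within the family, members with the nuclear respiratory factor 1 core had a median log2 ratio of 0.23 (10 members) against 0.29 without (58), and those with the antioxidant core 0.23 (8) against 0.28 (60). The medians were 0.31 with the GABP site (17) and 0.24 without (51), 0.27 with the YY1 site (10) and 0.28 without (58), and 0.11 with the ERR element (only 2 members) and 0.28 without (66). A match describes letters in a window and says nothing of binding.

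Isoform shares within a pair compare transcripts of the same nuclei, so they do not depend on the total count of a library. In adipocyte-like nuclei Cox7a1 made up 32.5% (30.6 to 34.4) of the Cox7a1 and Cox7a2 UMIs in the library labelled Flox and 40.0% (38.4 to 41.6) in the library labelled KO. Cox8b made up 45.8% (44.6 to 47.0) of Cox8a and Cox8b UMIs in Flox and 53.0% (52.1 to 53.9) in KO. In both pairs the tissue isoform thus had the larger share in KO, and the intervals did not overlap. In the 5 other compared classes the Cox8b intervals of the libraries overlapped. Endothelial-like nuclei had 48.0% and 49.3%, and fibroblast/progenitor-like nuclei 45.5% and 47.4%. Pericyte/smooth muscle-like nuclei had 39.9% (33.1 to 47.0) and 46.8% (38.3 to 55.4), from only 203 and 139 UMIs. Macrophage/monocyte-like (47.1% and 41.4%) and T/NK-like nuclei (50.75% and 47.6%) went the other way. At such counts an overlap does not show that a class lacked the difference. For Cox7a1, endothelial-like nuclei had 40.4% (36.4 to 44.4) in Flox and 31.96% (25.5 to 39.0) in KO.

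Other isoforms had larger shares in other classes. Ndufa4l2, a relative of Ndufa4 known to be induced by hypoxia and made in pericytes, had 32.4% of the pair's UMIs in pericyte/smooth muscle-like nuclei of Flox and 34.9% in KO, against 0.293% and 0.143% in adipocyte-like nuclei. Cox4i2, the oxygen-responsive isoform of Cox4, had 11.6% (7.44 to 17.1) and 14.3% (8.39 to 22.2) there, against 0.163% and 0.266% in adipocyte-like nuclei. Skeletal muscle-like nuclei were set apart by Cox6a2, with 66.4% (60.5 to 72.0) and 71.2% (56.9 to 82.9) of the Cox6a pair, against 3.09% and 0.750% in adipocyte-like nuclei. Atp5g1 had 26.0% of the Atp5g1, Atp5g2 and Atp5g3 UMIs in skeletal muscle-like nuclei of Flox and 28.2% in KO. In adipocyte-like nuclei it had 2.30% and 1.63%, the lowest shares of the compared classes. In Flox it had 18.75% (7.21 to 36.4, only 32 UMIs) in T/NK-like nuclei, an interval that covered the muscle-like value. It had 11.6% in fibroblast/progenitor-like, 11.1% in pericyte/smooth muscle-like, 10.0% in endothelial-like and 5.30% in macrophage/monocyte-like nuclei of Flox. In the muscle-like and pericyte-like classes the intervals of the libraries overlapped for each of these isoforms, and no test of class against class was run.

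**Figure D3:**
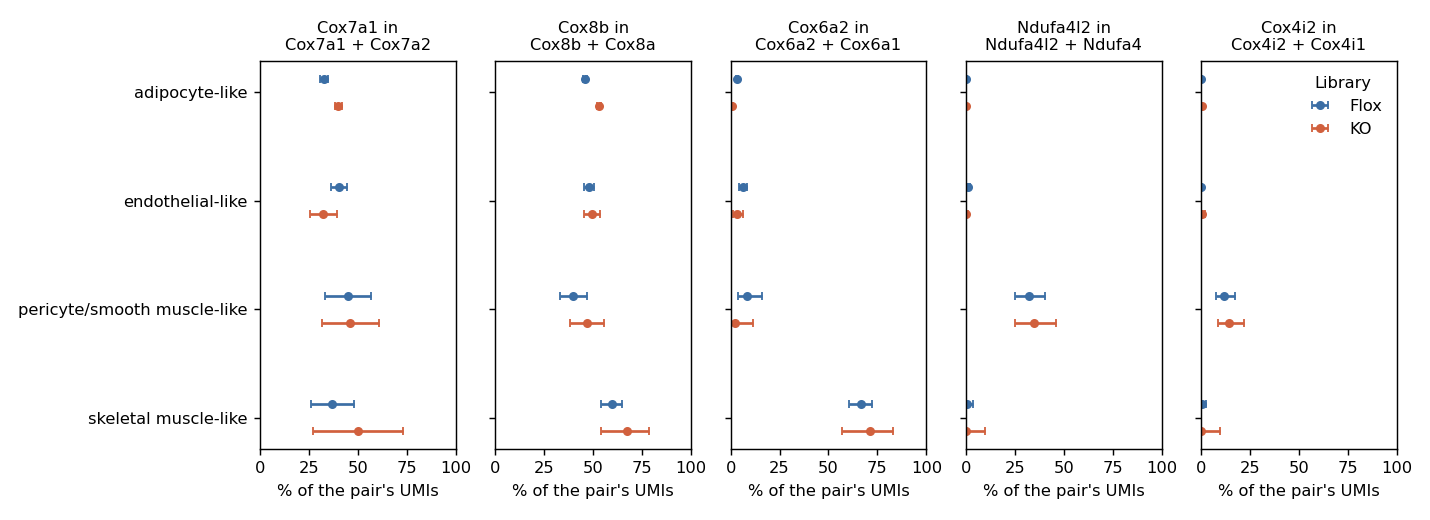
Share of the tissue isoform in the UMIs of its pair, in percent on the horizontal axis, for 5 pairs in 4 cell classes and both libraries; bars are 95% exact binomial intervals. Cox6a2 reaches 66.4% and 71.2% in skeletal muscle-like nuclei, and Ndufa4l2 32.4% and 34.9% in pericyte/smooth muscle-like nuclei.

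Cox8b and Cox7a1 were also seen in classes that are not known to make them. After thinning to 1000 UMIs per nucleus, 10.6% of adipocyte-like nuclei of Flox and 17.1% of KO had a Cox8b UMI (26.7% and 42.8% before thinning). In T/NK-like nuclei the thinned shares were 13.9% (6.87 to 24.1) and 7.32% (2.73 to 15.3), with median depths of 1454 and 1329 UMIs against 2757 and 3095 in adipocyte-like nuclei. Thinning left out 99 (Flox) and 499 (KO) adipocyte-like and 32 and 43 T/NK-like nuclei that were too shallow. The T/NK-like shares thus rest on 10 of 72 and 6 of 82 nuclei. A class not known to make Cox8b thus had a share of the same order, and Cox8b or Cox7a1 UMIs outside adipocyte-like and muscle-like nuclei are not read as expression. The 15 adipocyte markers summed to 20190 and 21870 CPM in adipocyte-like, 18290 and 19420 in endothelial-like, 10150 and 9057 in T/NK-like and 4094 and 3244 in fibroblast/progenitor-like nuclei, and their part in the member levels of those classes was not tested.

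The 4 adipocyte-like clusters did not share the difference equally. In cluster 0, the largest, members took 0.869% of UMIs in Flox and 1.02% in KO, and 75 of 84 counted members were above 0, with a median log2 ratio of 0.26. In cluster 1, led by guanylate-binding protein genes, they took 0.803% and 1.05%, with a median of 0.44 and 78 of 82 above 0. Cluster 2, whose leading genes include Ybx2, Gpd1 and Hk2, had the highest share in Flox, 1.05%, with a ratio of KO to Flox of 1.05, and a median of 0.10 with 55 of 82 above 0. Cluster 7, led by Slc7a10, Trhde and Retn, had the lowest, 0.682% and 0.670%, a median of -0.02 and 38 of 79 above 0.

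Cox8b followed the same order. It stood at 109 and 198 CPM in cluster 0, at 96.8 and 193 in cluster 1, at 154 and 235 in cluster 2 and at 87.3 in both libraries of cluster 7, where it had 107 and 91 UMIs. Uqcr11 had log2 ratios of 0.83, 1.07, 0.24 and 0.10 in clusters 0, 1, 2 and 7. The ratio of the summed members, KO to Flox, was 1.17 in cluster 0 (1.17 to 1.18), 1.31 in cluster 1 (1.30 to 1.33) and 0.983 in cluster 7 (0.952 to 1.015), where the members were level within counting error. The mitochondrial share of UMIs also differed by cluster. It was 0.499% in Flox and 1.24% in KO in cluster 0, and 0.341% and 1.29% in cluster 1. Cluster 2 had 0.659% and 1.55%, and cluster 7 had 0.391% and 0.855%. The part of the mitochondrial share in the order of the clusters was not tested, and no test of one cluster against another was run.

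Short members differed more than long ones. In adipocyte-like nuclei the 28 members under 5 kb had a median log2 ratio of 0.37, the 45 between 5 and 20 kb 0.27 and the 11 above 20 kb 0.10. All 8 members at least 1.5-fold higher were under 5 kb. The same order was found over all counted genes, with 0.12 for 1139 genes under 5 kb, -0.02 for 3918 genes between 5 and 20 kb and -0.09 for 7237 above, and for ribosomal protein genes under 5 kb the median was 0.32. Across the 84 members the Spearman correlation of log2 ratio and length was -0.53, and across all counted genes -0.23. The Pearson correlations were close to each other, at -0.23 and -0.21. Genes are not independent, and all points share the same pair of libraries. The part of gene length in the difference was not tested.

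**Figure D4:**
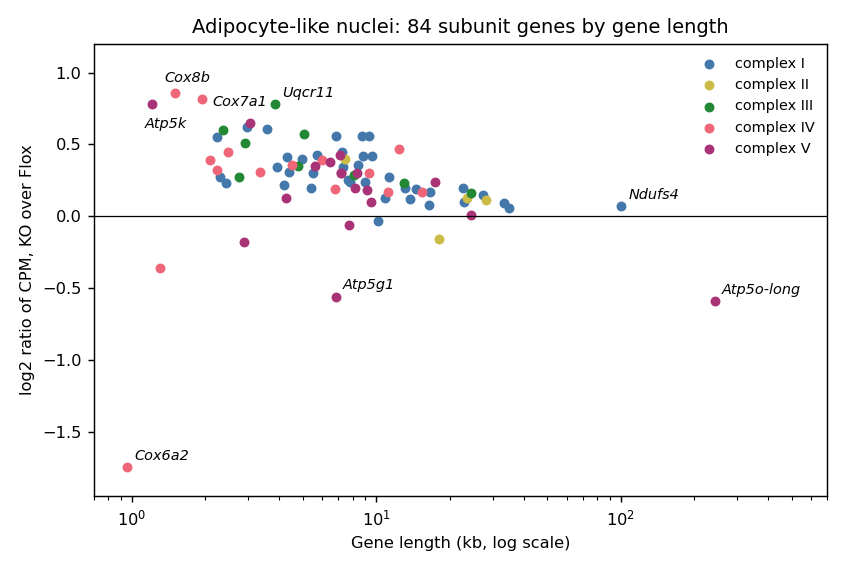
Log2 ratio of CPM, KO over Flox, in adipocyte-like nuclei on the vertical axis against gene length in kb on a log axis, for 84 subunit genes coloured by complex. Members under 5 kb have a median of 0.37 and those above 20 kb 0.10, and the lowest point is Cox6a2 at -1.75.

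The member share in adipocyte-like nuclei moved with the mitochondrial share of the nuclei, which also differed between libraries. Adipocyte-like nuclei had 0.463% of their UMIs on mitochondrially encoded genes in Flox and 1.28% in KO. Among nuclei with a mitochondrial share between 0.5% and 1% (2393 in Flox and 3049 in KO), members took 0.913% and 0.916%, and the median log2 ratio was 0.01. Between 0.25% and 0.5% (3063 and 816 nuclei) they took 0.823% and 0.794%, and between 1% and 2% (686 and 2909 nuclei) 1.11% and 1.09%. Above 2%, where Flox had only 127 nuclei against 1389, they took 1.94% and 1.40%. At matched mitochondrial share the summed members were thus level or lower in KO. The members furthest above 0 were closer to it among nuclei between 0.5% and 1%, with Cox8b and Cox7a1 at 0.34, Atp5k at 0.27, Ndufa3 at 0.23, Uqcr11 at 0.18 and Atp5e at 0.06, all below 1.5-fold. At the same time, within each library nuclei with more mitochondrial UMIs also had more UMIs on the members. Ribosomal protein genes moved likewise, from 0.322% of UMIs in Flox nuclei under 0.25% mitochondrial to 1.36% in those above 2%. Whether the mitochondrial share reflects the cells or the preparation of nuclei was not tested.

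**Figure D5:**
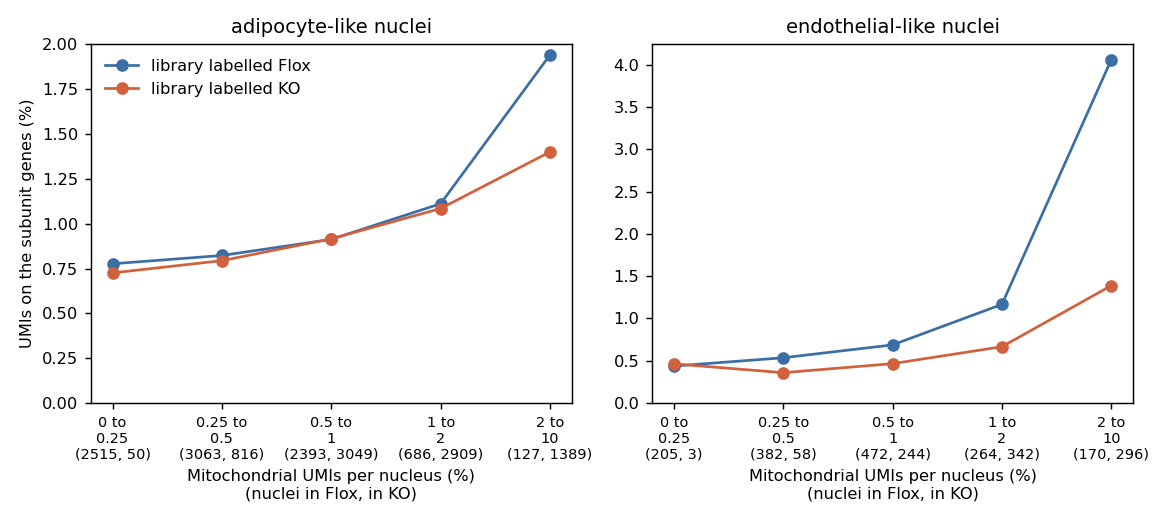
Share of UMIs on the 86 subunit genes, in percent on the vertical axis, by bin of mitochondrial UMIs per nucleus for adipocyte-like and endothelial-like nuclei, with the number of nuclei per library under each bin. In adipocyte-like nuclei the lines of the libraries run together up to 2%, while in endothelial-like nuclei the library labelled Flox reaches 4.06% in the last bin and the library labelled KO 1.39%.

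In endothelial-like nuclei nearly every subunit was lower in the library labelled KO. Of 82 counted members 80 were below 0, the median log2 ratio was -0.77, and that of all 8792 counted genes was -0.05. At least 1.5-fold lower were 59 members, where the share of all counted genes was 10.8%, and at least 1.5-fold higher were 0, where it was 2.96%. The medians were -0.70 for complex I, -0.50 for II, -0.83 for III, -0.92 for IV and -0.65 for V. Mitochondrially encoded genes went the other way, with a median of 0.38, and ribosomal protein genes stood at -0.21. Skeletal muscle markers in these nuclei summed to 381 CPM in Flox and 111.5 in KO, with all 7 counted markers lower, and their part in the result was not tested.

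Uqcrfs1, the Rieske protein, had 274 UMIs (104 CPM) in endothelial-like nuclei of Flox and 80 (42.3 CPM) in KO, a log2 ratio of -1.29 (-1.68 to -0.94). Cox7a1 had 241 UMIs (91.5 CPM) and 62 (32.8 CPM), with -1.47, and Atp5o 339 and 114 UMIs, with -1.09. The abundant Cox4i1 stood at 483 and 242 CPM, with a log2 ratio between -1.16 and -0.84, and Atp5b at 529 and 279.5 CPM (-0.92). Ndufs4 was closer, at 194 and 162 CPM (-0.26), and Ndufc2 at 148 and 151 CPM and Atp5j at 89.6 and 89.8 CPM were level. In Flox, Cox8b stood at 268 CPM in endothelial-like nuclei, above the 109 CPM of adipocyte-like nuclei.

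Other settings gave smaller differences, with medians of -0.45 when doublets were kept, -0.41 as the mean CPM over nuclei and -0.32 when classes came from marker scores.

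Endothelial-like nuclei differed widely in their share of members. The median share of members per nucleus was 0.659% in Flox and 0.595% in KO, much closer than the summed shares of 1.21% and 0.715%. Nuclei with over 2% of their UMIs on members numbered 145 (9.71%) in Flox and 38 (4.03%) in KO. The 145 had 4.41% of UMIs on members, 4.62% on mitochondrially encoded genes and 4.45% on ribosomal protein genes, against 0.626%, 0.624% and 0.930% in the other 1348. Their endothelial markers summed to 8150 CPM against 15280 in the others, adipocyte markers to 28240 against 16490, and erythroid markers to 2255 against 410. Without nuclei over 2%, an alternative chosen after seeing the data that selects on the measured genes themselves, the median log2 ratio was -0.04 and 3 members were at least 1.5-fold lower. This cut takes more nuclei from Flox than from KO, so a smaller difference was built into it.

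The member profile of endothelial-like nuclei in Flox resembled that of erythroid-like barcodes, a cluster of 136 barcodes in Flox and 48 in KO. Over both libraries together it was led by haemoglobin genes, Fth1, Tpt1 and Atp5e. The summed erythroid markers of these barcodes had a log2 ratio of 3.76, KO over Flox, so the Flox barcodes carried far less of them. Across the 86 members the Spearman correlation of CPM was 0.96 with erythroid-like barcodes and 0.70 with adipocyte-like nuclei of the same library, and in KO it was 0.84 and 0.80. Pericyte/smooth muscle-like nuclei of Flox had 0.90 with erythroid-like barcodes and 0.79 with adipocyte-like nuclei. The values were 0.87 and 0.86 for fibroblast/progenitor-like, 0.87 and 0.87 for macrophage/monocyte-like and 0.79 and 0.88 for T/NK-like nuclei. A likeness to erythroid-like barcodes was thus not particular to endothelial-like nuclei. All these values are descriptions over genes that share a library. By mitochondrial share the median log2 ratio in endothelial-like nuclei was uneven. It was -0.49 between 0.25% and 0.5%, -0.52 between 0.5% and 1%, -0.80 between 1% and 2% and -1.56 above 2%. Under 0.25%, where KO had 3 nuclei, the median was -0.47 over only 8 counted members, while the summed members gave 0.09 (-0.35 to 0.49). How far barcodes holding RNA of several cells account for it was not tested.

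In macrophage/monocyte-like nuclei 73 of 79 counted members were below 0, with a median log2 ratio of -0.38. At least 1.5-fold lower were 22, where the share of all counted genes was 6.93%, and at least 1.5-fold higher 0, where it was 3.90%. Sdhb had 137 UMIs (108 CPM) in Flox and 60 (53.6 CPM) in KO, a log2 ratio between -1.47 and -0.56, Cox5a 177 and 79 (-0.98) and Ndufs7 82 and 37 (-0.96), while Ndufs1 had 127 and 132 UMIs (0.24). The number at least 1.5-fold lower fell to 2 when doublets were kept and to 4 after thinning. Adipocyte markers in these nuclei summed to 5529 CPM in Flox and 4272 in KO, and skeletal muscle markers to 345 and 97.3 CPM.

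Fibroblast/progenitor-like nuclei differed little. Of 82 counted members 29 were above 0, the median was -0.09, 0 were at least 1.5-fold higher (background 3.03%) and 3 at least 1.5-fold lower (background 3.84%), namely the long Atp5o locus (511 and 265 UMIs, -0.59), Atp5g1 (37 and 17 UMIs, -0.74) and Ndufs8 (44 and 21 UMIs, -0.69). Sdha stood at -0.37, and Atp5g3 at 0.37 and Atp5o at 0.35 were the highest with at least 100 UMIs. Among nuclei with a mitochondrial share between 0.5% and 1% the median of the members was -0.48. Mitochondrially encoded genes had a median of 1.49 in the whole class, the same as in adipocyte-like nuclei, and beside it the members stood at 0.28 in adipocyte-like and -0.09 in fibroblast/progenitor-like nuclei, a difference that was not tested.

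Pericyte/smooth muscle-like nuclei had a median of -0.14 over 74 counted members, with 1 at least 1.5-fold higher (background 5.29%) and 7 lower (background 7.06%). The 1 higher member was Ndufa3, with 42 and 51 UMIs (0.84, 0.22 to 1.46), and the lower members included Cox5a, with 91 and 37 UMIs (-0.73). Atp5e (57 and 49 UMIs, 0.34) and Sdhc (55 and 46 UMIs, 0.30) were the highest with at least 100 UMIs. T/NK-like nuclei had a median of 0.09 over only 30 counted members, with 4 higher (background 8.79%) and 2 lower (background 8.64%). Among them Uqcr11 had 16 and 38 UMIs (1.12, 0.27 to 2.09) and Sdha 75 and 50 UMIs (-0.68), while Atp5b had 52 and 69 (0.30) and Cox4i1 54 and 71 (0.29). In both classes the counts past 1.5-fold lay near or below the share of all genes, apart from the 4 of 30 in T/NK-like nuclei, the sign of both medians changed under other settings, and the depth limits what could be detected.

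Genes that build and feed the chain are given from lists of their own. In adipocyte-like nuclei 49 assembly factors had a median log2 ratio of 0.10, with 1 at least 1.5-fold higher, Coa3, a complex IV assembly factor (133 and 226 UMIs, 0.69), and 0 lower, against 2.13% and 8.29% of all counted genes, which are also the background of the next lists. Sco2, which delivers copper to complex IV, stood at 0.55 and Tmem126a at -0.33. The 22 genes of the mobile carriers and coenzyme Q synthesis had a median of 0.07, with 1 at least 1.5-fold higher (Suox, 0.61), 0 lower and Etfdh, which feeds electrons from fatty acid oxidation into coenzyme Q, at 202 and 285 CPM (0.50). The 18 genes of the tricarboxylic acid cycle had a median of 0.13, from Idh2 at -0.25 to Idh3a at 0.41, and 0 passed 1.5-fold.

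The 22 regulators of respiratory chain genes had a median of -0.03, with 0 past 1.5-fold in either direction. Ppargc1a, the coactivator PGC-1 alpha, stood at 552 and 777 CPM (0.49), and Esrrb had 75 and 53 UMIs (-0.57). In endothelial-like nuclei the tricarboxylic acid cycle genes had a median of -0.71, with 12 of 18 at least 1.5-fold lower, the carriers -0.56 (8 of 19), assembly factors -0.23 (10 of 39) and regulators -0.19 (5 of 18), all read against the 10.8% of counted genes.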

How the data were processed

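The deposited matrices hold UMI counts per gene and barcode, made by the authors with Cell Ranger 5.0.0 on mm10, per the file headers and the submitters' processing notes; how intron reads and strand were treated is not stated there. Nuclei with at least 200 genes and at most 10% mitochondrial UMIs were kept, and Scrublet scores removed 2085 (Flox) and 1358 (KO) likely doublets (0.8% per 1000 barcodes). Nuclei of both libraries were clustered together in scanpy 1.11.5 (2000 variable genes, 30 principal components, 15 neighbours, Leiden resolution 0.5). The 16 clusters of at least 20 nuclei were scored against 16 marker lists and named where markers allowed. A further cluster of 18 nuclei was left unnamed for its size. A class was compared if both libraries had 100 or more of its nuclei. Counts were summed per class and library and scaled to the class total, and a log2 ratio was taken after adding 0.5 UMI. Intervals are 95%: Poisson for a level, exact binomial for a ratio, Clopper-Pearson for a share. A gene was counted in a class with at least 50 UMIs over both libraries. With 1 library per genotype, 1.5-fold is a rule of size, not a test. The scripts were tested on simulated data. TMM factors came from edgeR 4.0.16.

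Named genes are the 3 highest and 3 lowest per complex in adipocyte-like nuclei and per other class (at least 100 UMIs), the core subunits, the isoform pairs, the inhibitor, and the 2 highest and 2 lowest of the other lists, not all of which are printed; 1 core subunit is not reported here. Ndufab1, Atp5c1, Atp5o, clusters' genes and counts of 5 or fewer were named after their values were seen. The cytosolic ribosomal list goes by symbol and includes Rps19bp1. The members and lists were chosen with earlier results of these data known. The closing section gives the effect of 12 other settings and of 1 chosen after seeing the data.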

Additional observations from a re-analysis of the deposited data

Results flagged for a closer look

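The members had opposite signs in 2 of the compared classes: the median log2 ratio of KO over Flox was 0.28 in adipocyte-like nuclei and -0.77 in endothelial-like nuclei. The first was 0.01 among nuclei with a mitochondrial share of 0.5% to 1% and between -0.45 and -0.04 in the other bins of that share. The second was -0.32 where marker scores set the classes. It was -0.04 after leaving out nuclei over 2% members, a cut on the measured genes themselves. The difference between the classes was not tested, since each genotype is 1 library.

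Erythroid-like barcodes, which enter no comparison, had the highest share of UMIs on the members of the classes plotted, with 2.283% in the library labelled Flox and 1.643% in the library labelled KO. Their erythroid markers summed to 4839 CPM in Flox and 65460 CPM in KO, and their adipocyte markers to 22820 and 20550 CPM, so the barcodes under this name were not alike in the libraries. Atp5e is among the leading genes of the cluster, and the share is given as a description.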

How the results depend on the processing

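The medians kept their sign under the alternatives run in adipocyte-like, endothelial-like, fibroblast/progenitor-like and macrophage/monocyte-like nuclei, but not in pericyte/smooth muscle-like (-0.32 to 0.03) and T/NK-like nuclei (-0.23 to 0.27). Bins of mitochondrial share other than 0.5% to 1% were not among these alternatives. In them the adipocyte-like median changed sign, at -0.10 under 0.25%, -0.04 up to 0.5%, -0.04 from 1% to 2% and -0.45 above 2%. The adipocyte-like median ran from 0.01 to 0.34 over 13 alternatives; the low end came from nuclei with a mitochondrial share of 0.5% to 1%, where the summed ratios of complexes II (-0.04), IV (-0.01) and V (-0.02), Cox4i1 (-0.21) and Atp5a1 (-0.06) reversed and the fibroblast/progenitor-like median was -0.48. The cause was not tested.

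The number of members at least 1.5-fold higher in adipocyte-like nuclei, 8 as reported, was 4 with doublets kept or Leiden resolution 1.0, 5 with resolution 0.3, marker scores, the filter of 500 genes and 5% mitochondrial UMIs or the mean CPM over nuclei, and 13 with TMM factors.

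The endothelial-like median of -0.77 was -0.45 with doublets kept, -0.32 with marker scores, -0.41 as mean CPM and -0.04 without nuclei over 2%. Its 59 members at least 1.5-fold lower were 25, 11, 19 and 3 under these settings, 30 with the stricter filter and 32 after thinning to 1000 UMIs. The 22 in macrophage/monocyte-like nuclei were 2 with doublets kept, 14 at resolution 1.0, 8 with marker scores or the stricter filter, 4 after thinning and 6 without nuclei over 2%. The Cox7a1 share in endothelial-like nuclei of Flox was 46.47% after thinning. Marker scores placed 995 of the 1493 endothelial-like nuclei of Flox in that class; how the score was scaled was changed after a first form left most nuclei out of the adipocyte class.

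Depth limits the smaller classes: the median interval reached 0.08 on the log2 scale to either side in adipocyte-like, 0.29 in endothelial-like and 0.75 in T/NK-like nuclei. No paired analysis was possible because each genotype is 1 library.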
